A study of Mus musculus with 8 samples.

Results

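Gene deserts are long stretches of chromosome without protein-coding genes. The peaks described here are the autosomal chromatin immunoprecipitation peaks that lay, over their whole width, more than 200 kb from the body of every protein-coding gene of the GRCm38 annotation, the assembly to which mm10 coordinates belong. There were 73803 such peaks among 397351 in all, taken from 3 lists. HMGA2 contributed 34014 of its 152834 peaks, γ-H2AX (H2AXS139ph in the labels) 18724 of 124947 and ATM 21065 of 119570. Membership was set by gene positions and not by a score or density, although the outer limits at chromosome ends were set by the first and last peak, and the rule itself was chosen with earlier results of these data known. The 3 libraries came from mouse embryonic fibroblasts (MEF) of the C57BL/6 strain, wild type for Hmga2 (Hmga2 wt), prepared from E15.5 embryos and used at passages 2 to 4. By the labels the 3 libraries differed in the antibody. The series also holds the same antibodies in Hmga2 Ko cells and 2 inputs, which were not analysed here. Each list rests on 1 library, so there is no replicate error and no test, and each interval is a 95% interval for counting error only, exact except for the ratios between antibodies. Peaks that lie close together make these intervals too narrow. Peak lists hold no expression values, so the cell type was not checked against marker genes.

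Gene deserts are known to be rich in A and T bases and to replicate late. Some hold distant enhancers of the developmental genes at their edges. HMGA2 is a chromatin protein whose AT-hooks bind the minor groove of short AT-rich stretches. ATM is a kinase activated by DNA double-strand breaks, and γ-H2AX is the form of histone H2AX that it and related kinases phosphorylate around a break.

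On the 19 autosomes the rule gave 731 deserts with a total of 458.8 Mb, 19.09% of the 2403 Mb between the first and the last peak of each chromosome. The other 1944 Mb are called the rest. Deserts here are the cores that remain after 200 kb next to each flanking gene is set aside. Their median length was 344.6 kb, and 280 deserts of 500 kb or more held 80.17% of the length. The longest, with 4.142 Mb, lay between the protocadherin genes Pcdh20 and Pcdh9 on chromosome 14. A peak of HMGA2 was missing from 43 deserts, as was a peak of γ-H2AX from 43 and of ATM from 43, and 15 deserts, the longest of 0.03869 Mb, had no peak of any list.

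No whole-genome sequence was used here. Sequence under desert peaks was therefore read only where a RefSeq promoter window (GRCm38.p6, 250 bases before to 50 after an annotated start) was itself touched by a peak. Such windows belong to non-coding genes, since a desert holds no protein-coding gene by definition. The 4 below are shown to let the sequence under a desert peak be seen. They are windows with at least 150 bases inside a peak, namely the 2 with the highest scores for HMGA2 and the highest for each of γ-H2AX and ATM, a choice made after the data were examined. Each is read 5′ to 3′ on the strand of the gene, and capitals mark the bases that lie inside the peak.
Gm33083: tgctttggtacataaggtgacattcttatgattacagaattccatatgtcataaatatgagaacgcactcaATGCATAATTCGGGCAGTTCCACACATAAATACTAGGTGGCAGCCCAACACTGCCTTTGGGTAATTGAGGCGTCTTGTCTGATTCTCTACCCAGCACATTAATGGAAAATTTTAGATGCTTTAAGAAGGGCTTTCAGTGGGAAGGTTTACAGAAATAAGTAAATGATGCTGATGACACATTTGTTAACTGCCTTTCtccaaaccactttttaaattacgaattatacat
Gm6602: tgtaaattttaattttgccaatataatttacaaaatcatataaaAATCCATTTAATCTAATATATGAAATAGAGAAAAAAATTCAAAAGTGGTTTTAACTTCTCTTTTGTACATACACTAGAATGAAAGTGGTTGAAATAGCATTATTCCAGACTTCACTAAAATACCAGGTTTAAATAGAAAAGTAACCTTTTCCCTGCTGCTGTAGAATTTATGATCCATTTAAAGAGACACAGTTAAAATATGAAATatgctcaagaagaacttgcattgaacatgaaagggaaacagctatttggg
Gm11228: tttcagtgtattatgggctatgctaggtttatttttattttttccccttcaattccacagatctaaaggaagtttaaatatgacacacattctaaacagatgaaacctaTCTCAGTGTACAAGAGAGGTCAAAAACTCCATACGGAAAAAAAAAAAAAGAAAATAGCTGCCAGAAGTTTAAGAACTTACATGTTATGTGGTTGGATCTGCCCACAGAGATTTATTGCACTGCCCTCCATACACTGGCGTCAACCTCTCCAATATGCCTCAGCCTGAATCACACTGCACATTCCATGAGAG
Gm46397: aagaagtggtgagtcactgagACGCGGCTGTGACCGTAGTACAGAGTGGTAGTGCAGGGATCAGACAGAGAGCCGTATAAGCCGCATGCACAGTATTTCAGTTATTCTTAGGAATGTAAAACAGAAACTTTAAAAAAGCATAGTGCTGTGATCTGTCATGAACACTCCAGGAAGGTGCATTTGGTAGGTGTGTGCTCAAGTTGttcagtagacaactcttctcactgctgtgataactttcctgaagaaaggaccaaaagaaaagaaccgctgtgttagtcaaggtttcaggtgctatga
Gm33083 (HMGA2, score 27.14) is a long non-coding RNA gene on chromosome 1, window chr1:77896249-77896548 on the minus strand, in the desert between the ephrin receptor gene Epha4 and the transcription factor gene Pax3. Gm6602 (HMGA2, score 25.61), at chr3:111881653-111881952 on the plus strand, lay between Prmt6 and Amy2b. Of its bases inside the peak 72.33% were A or T, and 59.18% in Gm33083. Gm11228 (γ-H2AX, score 31.54), at chr4:71131084-71131383 on the minus strand between Megf9 and Gm11232, had 57.59% A or T inside the peak and the window held a run of 16 bases made of A and T only. Gm46397 (ATM, score 24.11), at chr13:102351466-102351765 on the minus strand between Pik3r1 and Cd180, had 54.95%. The windows second by score for γ-H2AX (Gm12374) and ATM (Gm36011) are not printed. They had 62.96% and 58.91% inside the peak, the first of these above Gm33083. Such single windows do not rank the antibodies by A and T content. The score of a peak is the authors' deposited value, a log-scaled p on which 20 stands for their threshold of 0.01 and higher scores for smaller p.

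The first comparison asked whether the antibodies had more or fewer peaks per Mb in deserts than in the rest. HMGA2 peaks were denser in deserts, γ-H2AX peaks were sparser and ATM peaks were nearly as dense. HMGA2 had 74.13 peaks per Mb in deserts (73.35 to 74.92) and 55.97 in the rest (55.63 to 56.30), a ratio of 1.325 (1.309 to 1.341). For γ-H2AX there were 40.81 per Mb in deserts (40.23 to 41.40) and 51.72 in the rest (51.40 to 52.04), a ratio of 0.7891 (0.7768 to 0.8015). ATM had 45.91 per Mb in deserts (45.29 to 46.53) and 46.83 in the rest (46.53 to 47.14), a ratio of 0.9803 (0.9657 to 0.9951). Deserts thus held 23.82% of autosomal HMGA2 peaks (23.60 to 24.04), 15.70% of γ-H2AX peaks (15.49 to 15.91) and 18.79% of ATM peaks (18.56 to 19.02), on 19.09% of the length.

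Between antibodies the same deserts and the same rest apply, so that length cancels. HMGA2 had 1.817 peaks for each γ-H2AX peak in deserts and 1.082 in the rest, a ratio of ratios of 1.679 (1.646 to 1.712). Against ATM, HMGA2 had 1.615 in deserts and 1.195 in the rest (1.351, 1.325 to 1.378), and ATM against γ-H2AX had 1.125 and 0.9056 (1.242, 1.216 to 1.269). None of these intervals includes 1. They describe 3 libraries, and a difference between single libraries in sequencing depth, fragment length or background cannot be told apart from a difference between antibodies.

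The ratio kept its side of 1 on every autosome for HMGA2 and for γ-H2AX. HMGA2 was denser in deserts on 19 of 19 autosomes, at ratios of 1.017 on chromosome 19 to 1.666 on chromosome 17, with a median of 1.337. The interval was above 1 on 18 of them, all but chromosome 19. γ-H2AX was sparser in deserts on 19 of 19, at 0.6156 on chromosome 19 to 0.9160 on chromosome 7, with every interval below 1. ATM was above 1 on 8 autosomes and below on 11, at 0.8757 to 1.055. Chromosomes of 1 library share its depth and preparation and are not replicates.

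**Figure D1:**
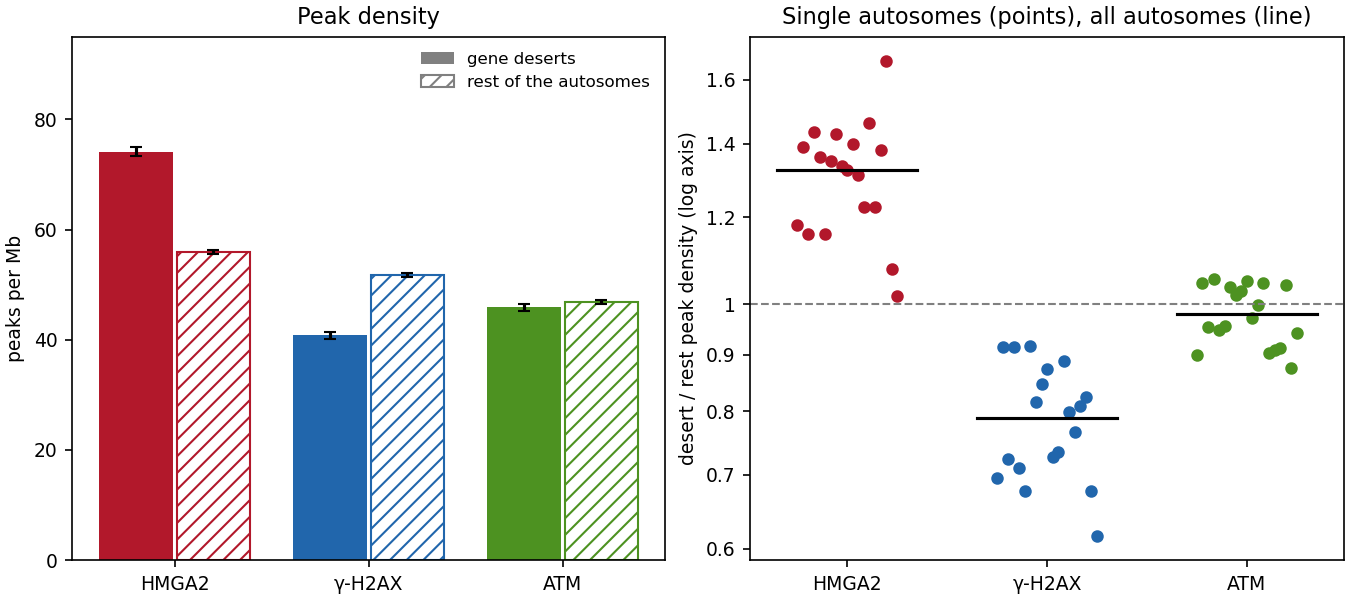
Left, peaks per Mb in gene deserts (filled bars) and in the rest of the autosomes (hatched bars) for each wild-type library, with exact 95% Poisson intervals for counting error as error bars. Right, desert density divided by rest density on a log axis, with 1 point per autosome and a line for all 19 autosomes. HMGA2 points lie between 1.017 and 1.666, γ-H2AX points between 0.6156 and 0.9160, and ATM points on both sides of 1.

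Density changed by degrees with distance from genes and made no step at 200 kb. Outside gene bodies HMGA2 had its lowest density next to genes, with 48.52 peaks per Mb at 0 to 10 kb. It had 49.34 at 10 to 50 kb, 53.27 at 50 to 100 kb, 59.61 at 100 to 200 kb, 67.43 at 200 to 500 kb, 80.32 at 500 to 1000 kb and 87.45 (85.21 to 89.74) beyond 1000 kb. The density beyond 1000 kb was 1.471 times the autosomal mean of 59.43. γ-H2AX ran the opposite way, with 56.73 per Mb in gene bodies, 49.56 at 0 to 10 kb, 44.45 at 100 to 200 kb, 43.25 at 200 to 500 kb, 38.61 at 500 to 1000 kb and 35.81 (34.38 to 37.29) beyond 1000 kb, 0.7216 times its mean of 49.63. ATM stayed between 45.57 and 47.29 per Mb in every bin up to 500 kb, and had 46.00 at 500 to 1000 kb and 42.08 (40.52 to 43.67) beyond. Inside gene bodies HMGA2 had 59.84 per Mb, close to its autosomal mean, so that distance from genes alone did not order the HMGA2 densities.

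Just inside the limit, at 200 to 220 kb, HMGA2 had 61.40 peaks per Mb, γ-H2AX had 44.60 and ATM had 48.74. Just outside it, at 180 to 200 kb, HMGA2 had 62.60, γ-H2AX 42.80 and ATM 47.61. For each antibody the 2 intervals overlapped.

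**Figure D2:**
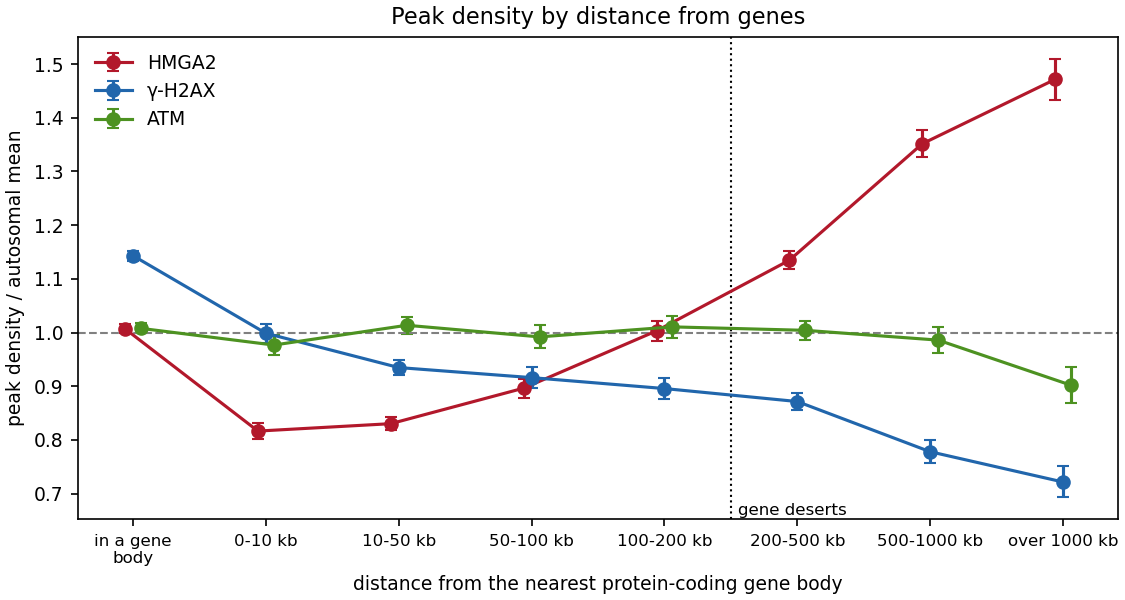
Peak density by distance from the nearest protein-coding gene body, divided by the autosomal mean density of the same library, with exact 95% Poisson intervals as error bars. The dotted line marks 200 kb, to the right of which lie the deserts. HMGA2 is lowest at 0 to 10 kb and reaches 1.471 beyond 1000 kb, whereas γ-H2AX is highest in gene bodies and reaches 0.7216.

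HMGA2 density was higher in longer deserts, and from 100 kb upwards γ-H2AX density was lower in longer ones. In deserts under 100 kb HMGA2 had 56.78 peaks per Mb, in those of 100 to 500 kb 60.70, of 500 to 1000 kb 68.35, of 1000 to 2000 kb 76.49 and in the 53 of 2000 kb or more 84.63 (83.15 to 86.13). In the same classes γ-H2AX had 43.06, 46.41, 42.70, 39.47 and 37.29 (36.30 to 38.29). ATM had 47.85, 47.91, 46.61, 46.38 and 43.81 (42.75 to 44.90). Length and distance from genes are tied, since only a long desert has sequence far from genes.

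Single deserts of 500 kb or more differed widely. Among the 280, HMGA2 density ran from 12.39 to 129.2 peaks per Mb with a median of 74.78, γ-H2AX from 11.73 to 100.4 with a median of 36.40, and ATM from 11.37 to 75.43 with a median of 45.66. HMGA2 was above its rest density in 223 and γ-H2AX below its own in 214, and 162 had both. The reverse, HMGA2 below and γ-H2AX above, was found in 5. With 223 and 214 of 280, many deserts with both follow from the counts of each list alone. The 162 therefore do not show that the lists avoid each other. The median desert was at 1.336 times the rest density for HMGA2 and 0.7038 times for γ-H2AX. Over all 500 kb windows tiled along the autosomes the medians were 1.036 and 0.9281 times. In 61 both were above and in 52 both below. Across the 280 deserts the densities of the lists still went together, with Spearman's rho of 0.518 between HMGA2 and γ-H2AX (Pearson's r 0.499), 0.385 between HMGA2 and ATM (0.432) and 0.636 between ATM and γ-H2AX (0.652). The densities of a desert share its sequence and its assembly gaps, and the values are given as descriptions.

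A desert was called dense at 1.5 times the rest density of the library or more, and sparse at 1/1.5 of it or less. Of the 280 deserts, 87 (31.07%) were dense in HMGA2, where 18.8% of all 500 kb windows tiled along the autosomes passed the same rule, and 20 (7.143%) were sparse, where 21.6% of windows did. For γ-H2AX 8 (2.857%) were dense against 10.1% of windows, and 123 (43.93%) sparse against 27.2%. For ATM 5 (1.786%) were dense against 3.73% and 13 (4.643%) sparse against 11.1%. Deserts and windows differ in size, so windows were also set against windows. Of 461 windows wholly inside deserts, 45.99% were dense and 3.037% sparse in HMGA2, against 12.54% and 26.92% of the 3165 windows that touched no desert. In γ-H2AX 2.386% of the desert windows were dense and 49.89% sparse, against 11.66% and 21.48% of windows without a desert. For ATM 1.302% of the desert windows were dense and 10.63% sparse, against 3.665% and 11.44% of windows without a desert.

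**Figure D3:**
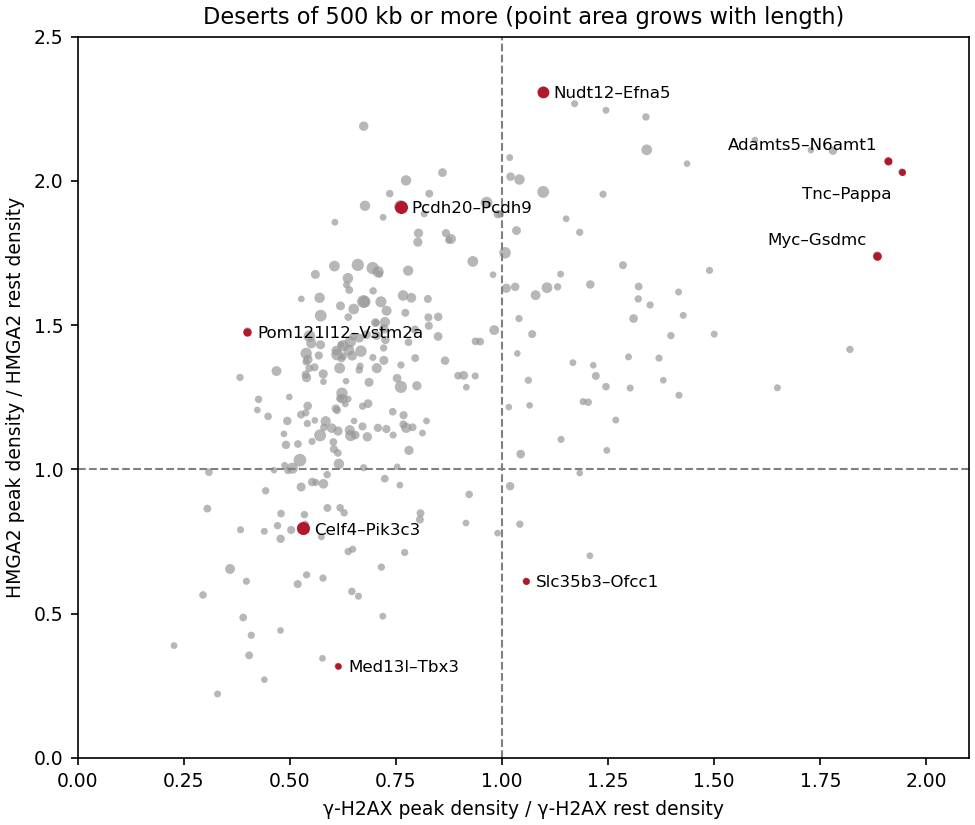
HMGA2 density (vertical) and γ-H2AX density (horizontal) of each of the 280 deserts of 500 kb or more, each divided by the rest density of the same library, so that 1 (dashed) is the level of the rest. Point area grows with length. The upper left field, with HMGA2 above and γ-H2AX below the rest, holds 162 deserts and the lower right field 5. Both counts depend on how many deserts lie above or below the rest for each list alone. Named deserts are in red.

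The 5 longest deserts all had γ-H2AX below the rest, and HMGA2 above it in 4 of the 5. The Pcdh20 to Pcdh9 desert (chr14:88671397-92813699) had 106.9 HMGA2, 39.35 γ-H2AX and 41.28 ATM peaks per Mb. In each of its 20 successive 200 kb steps there were 14 to 32 HMGA2 peaks, more than the rest density gives for 200 kb, and 1 to 13 γ-H2AX peaks. The desert between Olfm4 and Pcdh17, another protocadherin gene, had 356 HMGA2 and 140 γ-H2AX peaks on 4.020 Mb, and that between Tenm3, which encodes a teneurin of synapse formation, and the lysosomal enzyme gene Aga had 341 and 129 on 3.589 Mb. The exception was the desert between Celf4, which encodes an RNA-binding protein of neurons, and the lipid kinase gene Pik3c3 on chromosome 18. There HMGA2 had 44.51 peaks per Mb (38.30 to 51.45), below the rest, on 4.111 Mb. Between Cntnap5b and the cadherin gene Cdh20 HMGA2 had 57.77 per Mb (50.45 to 65.85), an interval that includes the rest density.

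The extremes that follow are among the 280 deserts of 500 kb or more, and shorter deserts reached higher and lower densities. HMGA2 was densest between Nudt12 and Efna5, which encodes an ephrin ligand, on chromosome 17 (chr17:59213368-62402956), with 129.2 peaks per Mb and 412 peaks. Its 200 kb steps held 22 to 38. Between Gja1, the gene of connexin 43, and the heat shock factor gene Hsf2 there were 126.9 per Mb, and between Pex2 and 1700008P02Rik 125.6. γ-H2AX was above its own rest density in these 3, with 56.75, 60.58 and 64.38 peaks per Mb in the order named. The sparsest for HMGA2 were Tbc1d22a to Tafa5 (12.39 per Mb), Cdh26 to 4930591A17Rik (15.16) and Med13l to the T-box gene Tbx3 (17.82). Stretches of 50 kb or more without a peak of any list made up 44.98%, 15.93% and 11.62% of these 3. Their part in the low values was not tested.

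Of the 280 deserts of 500 kb or more, the 3 densest in γ-H2AX also had HMGA2 at 1.5 times its rest density or more. Between Tnc, which encodes the matrix protein tenascin C, and Pappa, which encodes a protease of insulin-like growth factor-binding proteins, there were 68 γ-H2AX peaks, 100.4 per Mb (77.98 to 127.3) on chromosome 4. Between Adamts5, the gene of an aggrecan-cleaving protease, and N6amt1 there were 104 peaks, 98.76 per Mb (80.69 to 119.7), on chromosome 16. Between Myc and Gsdmc (chr15:62190362-63575970) there were 135, 97.43 per Mb (81.69 to 115.3). HMGA2 had 77 peaks in the first of these deserts, 122 in the second and 135 in the third, above its rest density in each. Of the 8 deserts dense in γ-H2AX, 8 had HMGA2 above its rest density, as had 223 of all 280, and 8 had ATM above its own, as had 121 of all 280. HMGA2 itself was short of 1.5 times in 2 of the 8, between Klf4 and Actl7b (1.416) and between Mctp2 and Rgma (1.283). The other 5 of the 8 lay between Klf4, the gene of a zinc-finger transcription factor, and Actl7b, Marcks and Rfpl4b, Dph6 and BC052040, Mctp2 and Rgma, and Setbp1 and Gm36718. They are named as the rest of a short list, after their values were seen. Deserts shorter than 500 kb went both ways, as in 2 examples also named after their values were seen. Between Gm5148 and Ankrd50 γ-H2AX was at 2.381 times its rest density and HMGA2 at 0.7699 times. Between Pcdh18 and Slc7a11 the values were 1.956 and 2.411 times. Along the Myc to Gsdmc desert γ-H2AX had 16 to 27 peaks per 200 kb and HMGA2 13 to 27, and along the Adamts5 to N6amt1 desert γ-H2AX had 18 to 22 and HMGA2 18 to 30.

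**Figure D4:**
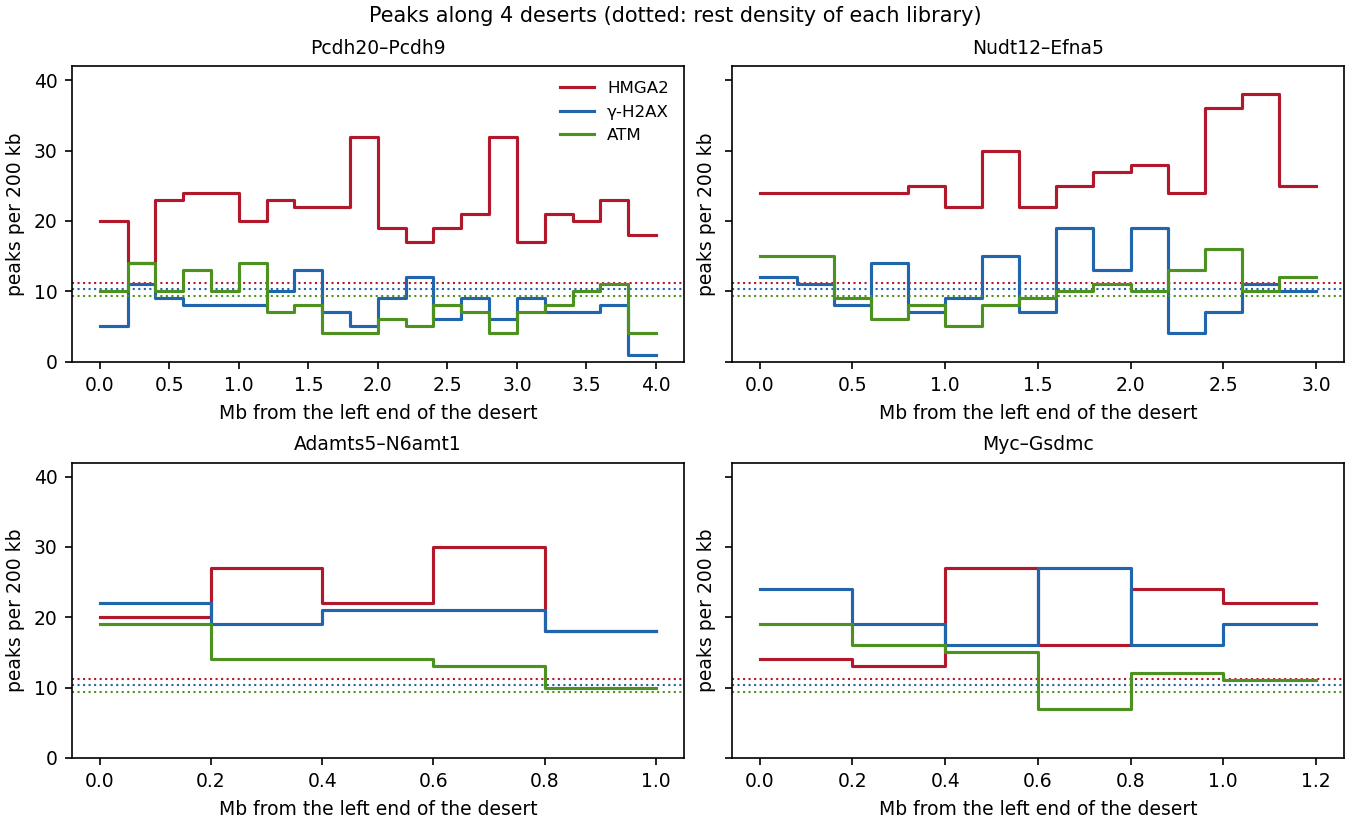
Peaks per 200 kb of HMGA2, γ-H2AX and ATM along 4 deserts, by distance from the left end of the desert, with the rest density of each library dotted. HMGA2 stays above its dotted line along the Pcdh20 to Pcdh9 and Nudt12 to Efna5 deserts, and γ-H2AX above its own along the Adamts5 to N6amt1 and Myc to Gsdmc deserts.

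The following extremes, too, are among the 280 deserts of 500 kb or more. γ-H2AX was sparsest between the splicing factor gene Rbfox1 and Tmem114 (11.73 per Mb). Next were Gm33989 to Vstm2b (15.26) and Fbxo15 to Neto1, a glutamate receptor auxiliary subunit (15.79). Stretches without any peak made up 19.18% of the first of these and none of the others. ATM was densest between Rap2b and Arhgef26 (75.43 per Mb), between A1bg and Myc (73.79) and between Sucla2 and the serotonin receptor gene Htr2a (72.90). It was sparsest between Cdh26 and 4930591A17Rik (11.37), between Tbc1d22a and Tafa5 (17.04) and between Plekhb2 and Hs6st1 (26.62). Relative to γ-H2AX, HMGA2 was most frequent between Pom121l12 and Vstm2a, with 104 HMGA2 and 26 γ-H2AX peaks, between Gnpda2 and the GABA receptor gene Gabrg1 with 56 and 15, and between the adhesion gene Cadm2 and Speer2 with 225 and 64. It was least frequent between Med13l and Tbx3, with 9 and 16, between Slc35b3 and Ofcc1, with 22 and 35, and between Rps24 and Zmiz1, with 22 and 35.

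Deserts beside 2 lists of genes were described, a list of developmental transcription factors and signals and a list of cadherin, protocadherin and synaptic adhesion genes. Of 42 listed adhesion gene symbols, 38 were found among the autosomal genes and 33 bordered a desert, 50 deserts in all. HMGA2 was above its rest density in 50 of these 50, γ-H2AX in 7 (14.00%) and ATM in 18 (36.00%). Over all 731 deserts this was so for 61.15% (HMGA2), 31.05% (γ-H2AX) and 47.47% (ATM). Among the 280 deserts of 500 kb or more it was so for 223 (HMGA2), 66 (γ-H2AX) and 121 (ATM). The median ratio of HMGA2 to its rest density was 1.508 beside adhesion genes and 1.168 over all deserts, and that of γ-H2AX 0.6747 and 0.7279. In deserts of 500 kb or more these medians were 1.336 (HMGA2) and 0.7038 (γ-H2AX). Deserts beside adhesion genes were also longer, with a median of 1.647 Mb against 0.3446 Mb, and the part of length in this was not tested. HMGA2 density in the 50 ran from 55.98 per Mb between Chst9 and the N-cadherin gene Cdh2, against 55.97 in the rest, to 140.4 between the ephrin receptor gene Epha3 and Csnka2ip. Between Trim52 and Slitrk1, a transmembrane protein gene of neurite growth, there were 112.0 HMGA2, 40.01 γ-H2AX and 38.33 ATM peaks per Mb. Between Cdh6 and Cdh9 there were 81.85, 28.23 and 35.85. Not every member was low in γ-H2AX, as between Cdh11, the cadherin of mesenchymal cells, and Cdh5 it had 64.40 per Mb against 72.04 for HMGA2.

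Of the 40 developmental genes, 34 bordered 42 deserts, with a median length of 0.5305 Mb. HMGA2 was above its rest density in 24 (57.14%), γ-H2AX in 14 (33.33%) and ATM in 18 (42.86%), close to the shares over all deserts. Members differed in HMGA2, with no peak in 0.05709 Mb between Sox9 and Slc39a11 (0 to 64.61 per Mb) and 125.9 per Mb (74.63 to 199.0) between Fgf10, a growth factor gene of limb and lung, and Nnt. It was dense between Zeb2, a zinc-finger repressor gene, and Acvr2a, with 362 peaks and 109.8 per Mb, between Nr2f1, a nuclear receptor gene, and Arrdc3 (94.55), and between Klhl1 and Dach1 (109.5). It was low between the pluripotency factor gene Sox2 and Atp11b, with 31.36 per Mb (19.65 to 47.48), between the Iroquois genes Irx2 and Irx4, with 22.18 (7.203 to 51.77), and between Sall3, a zinc-finger gene, and Galr1, with 19.89 (12.15 to 30.72). Values on few peaks had intervals that include the rest density, with 35.58 (13.06 to 77.44) between Dnajc19 and Sox2, 34.52 (15.79 to 65.53) between Irx1 and Irx2 and 25.62 (6.980 to 65.59) between Irx3 and Irx5. Between Shh, the gene of the sonic hedgehog morphogen, and Rnf32 there was 1 HMGA2 peak in 0.3256 Mb, 3.071 per Mb (0.07775 to 17.11), with 4 of γ-H2AX and 7 of ATM. Stretches without any peak made up 28.26% of that desert. On both sides of Myc HMGA2 was above the rest. Beside Sox11 it had 77.69 per Mb towards Dcdc2c (58.36 to 101.4) and 63.82 towards Cmpk2 (42.74 to 91.65), an interval that includes the rest density.

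Desert peaks and other peaks had close median scores and widths. Each list starts at a score of 20, so close medians say little about high scores. At 30 or more the intervals in deserts and in the rest did not overlap for HMGA2 and γ-H2AX. The median score was 23.81 for HMGA2 in deserts and 23.75 in the rest, 23.58 and 23.64 for γ-H2AX, and 23.65 and 23.58 for ATM. Median widths were 170 and 169 bp for HMGA2, 167 and 168 bp for γ-H2AX, and 167 and 167 bp for ATM. A score of 30 or more was held by 4102 desert peaks of HMGA2, 12.06% (11.72 to 12.41), against 11.37% in the rest, where 11.5% of all autosomal HMGA2 peaks had it. For γ-H2AX it was 9.512% in deserts (9.095 to 9.941) against 10.53% in the rest and 10.4% over all, and for ATM 10.20% against 10.17% and 10.2% over all. Scores of 50 or more were held by 201 HMGA2, 60 γ-H2AX and 91 ATM desert peaks, 0.5909%, 0.3204% and 0.4320%, where 0.531%, 0.337% and 0.390% of all autosomal peaks had them. Wide peaks made up a smaller share in deserts for HMGA2 and ATM, while for γ-H2AX the intervals in deserts (0.01845 to 0.08417%) and in the rest (0.06931 to 0.1067%) overlapped. Desert peaks over 500 bp numbered 10 for HMGA2 (0.02940%, against 0.1011% in the rest and 0.084% over all), 8 for γ-H2AX (0.04273%, against 0.08653% and 0.0797%) and 10 for ATM (0.04747%, against 0.1746% and 0.151%).

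The share of peaks with a near neighbour depends on density, so its direction follows from the densities above and is no separate finding. A peak of the same list lay within 1 kb of 19.70% of desert HMGA2 peaks (19.28 to 20.13) and of 16.88% in the rest, where the share over all was 17.6%. For γ-H2AX the shares were 10.08% in deserts (9.656 to 10.52) and 14.12% in the rest, with 13.5% over all. For ATM they were 10.05% in deserts (9.642 to 10.46) and 10.30% in the rest, with 10.3% over all.

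Few desert peaks were shared between lists. Of desert HMGA2 peaks 701, or 2.061% (1.913 to 2.218), overlapped a γ-H2AX peak by at least 1 bp, against 2.925% in the rest and 2.72% over all. An ATM peak was overlapped by 725, or 2.131%, against 2.523% in the rest and 2.43% over all. Counted from the γ-H2AX list, 3.760% of desert peaks (3.492 to 4.042) met an HMGA2 peak, against 3.160% in the rest and 3.25% over all, and 2.852% met an ATM peak, against 2.652% and 2.68%. From the ATM list 3.427% met an HMGA2 peak, against 3.006% and 3.09%, and 2.530% met a γ-H2AX peak, against 2.913% and 2.84%. Such shares depend on the density of the list that is met, and shared peaks per Mb depend on the densities of both lists. Per Mb, HMGA2 peaks shared with γ-H2AX numbered 1.528 in deserts and 1.637 in the rest (ratio 0.9332, 0.8587 to 1.013), and those shared with ATM 1.580 and 1.412 (1.119, 1.030 to 1.215). ATM peaks shared with γ-H2AX numbered 1.162 and 1.364 (0.8516, 0.7745 to 0.9350). These ratios do not show more or less sharing than the densities of the lists give, which was not calculated.

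All 3 lists met at 32 desert HMGA2 peaks, spread over 28 deserts, 0.09408% of them against 0.1296% in the rest and 0.121% over all. From the γ-H2AX list it was 37 peaks, 0.1976%, against 0.1472% in the rest and 0.155% over all, and from the ATM list 34, 0.1614%, against 0.1483% and 0.151%. With a score of 30 or more in each list there were 2, next to each other in the desert between Lrrc4c, a synaptic adhesion gene, and Iftap on chromosome 2, at chr2:98662115-98663000 (HMGA2 score 164.2, γ-H2AX score 203.9, ATM score 214.3) and chr2:98663643-98664191 (73.88, 81.86 and 75.20). The HMGA2 peaks of these 2 were 886 and 549 bp wide, where the median desert HMGA2 peak had 170 bp. They cannot be told apart from background shared by the libraries. The next by lowest score, named after its values were seen, lay between Rspo3, a Wnt agonist gene, and Cenpw at chr10:29970950-29971089, with 28.17, 49.70 and 39.88.

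The highest-scoring desert peaks were often common to several libraries. All 5 of γ-H2AX and all 5 of ATM overlapped a peak of another list, as did 2 of the 5 of HMGA2. A peak in the Ipmk to Zwint desert led the ATM list with 240.1 and was second for HMGA2 with 171.6, at chr10:72297066-72297349. High scores at the same place with different antibodies cannot be told apart from background shared by the libraries, as no input values were used here. Of the HMGA2 peaks that no other list shared, the highest lay in the Pcdh9 to Spertl desert, at chr14:95614458-95614750, with a score of 218.6. Those in the Tenm3 to Aga desert (102.2) and between 4931408C20Rik and Gm597 (95.25) followed.

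Deserts hold genes that code for no protein. Non-coding genes and pseudogenes took up 11.58% of desert length and 1273 of 3359 were long non-coding RNA genes, with 9.391% of the length. In the bodies of these, HMGA2 peaks were slightly sparser than in other desert sequence, at 68.07 against 74.76 per Mb (ratio 0.9105, 0.8763 to 0.9456), whereas γ-H2AX peaks were denser, at 47.06 against 40.16 (1.172, 1.119 to 1.227). ATM had 48.43 against 45.65 (1.061, 1.014 to 1.110). In pseudogenes all 3 were lower, HMGA2 at 50.42 against 74.35 per Mb and γ-H2AX at 31.18 against 40.90, while the interval for ATM (0.9226, 0.7901 to 1.071) included 1. The antigen receptor loci, whose gene segments are not annotated as protein-coding, made up 3 deserts of 6.225 Mb together. Of these, the immunoglobulin heavy-chain segments between Adam6a and Zfp386 had 36.64 HMGA2 and 18.56 γ-H2AX peaks per Mb. Of the authors' promoter regions, 12 of 2180 autosomal ones for γ-H2AX (0.5505%) and 11 of 840 for ATM (1.310%) lay in deserts. Of all autosomal RefSeq promoter windows, 1022 of 31365 did. The desert rule leaves out the promoters of protein-coding genes, so low shares follow from it and are no finding.

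Promoter windows in deserts were richer in A and T. Of the 31365 RefSeq promoter windows on autosomes, 1022 lay in deserts, and their median share of A and T was 56.00%. It was 51.00% in the 10289 other windows of non-coding genes and 43.00% in the 20054 windows of protein-coding genes. HMGA2 peaks touched AT-richer windows. The median was 59.67% in the 16 desert windows with an HMGA2 peak against 56.00% in those without, and 55.67% against 51.00% in the other windows of non-coding genes. With γ-H2AX it was 56.50% against 56.00% in deserts and 51.67% against 51.00% in the others. With ATM it was 56.00% against 56.00% in deserts and 53.00% against 51.00% in the others. HMGA2 touched 1.566% of desert windows (0.8974 to 2.530) and 1.817% of other non-coding windows, where 1.47% of all windows were touched. For γ-H2AX it was 3.327% (2.315 to 4.618) against 3.013%, with 3.63% over all, and for ATM 2.250% (1.432 to 3.358) against 1.759%, with 1.84% over all. Thus the higher HMGA2 density of deserts was not seen at these few windows. Their share was the lower one, with an interval that includes the share of other non-coding windows. Among the other non-coding windows, HMGA2 touched 0.6918% of those under 50% A and T, 2.187% at 50 to 60% and 4.626% (3.503 to 5.979) at 60% or more. γ-H2AX touched 2.767%, 3.183% and 3.280%, and ATM 1.451%, 2.013% and 1.934%. In deserts HMGA2 touched 1 of 170, 7 of 544 and 8 of 308 windows in the same classes (0.5882%, 1.287% and 2.597%). In each class this was below the share of the other non-coding windows, with overlapping intervals. γ-H2AX touched 3, 18 and 13 of these desert windows (1.765%, 3.309% and 4.221%), a share that also was higher in AT-richer classes, and ATM 3, 15 and 5. The intervals of these small counts overlapped between classes for each antibody. The part of AT content in the HMGA2 density of deserts was not tested. The composition of peaks outside these windows was not measured.

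MicroRNA hairpins were the other elements with known sequence. Of 45 hairpins in deserts 8 had an HMGA2 peak within 1 kb (17.78%, 8.002 to 32.05), against 7.780% of 874 others and 8.27% over all. For γ-H2AX there were 2 (4.444%, 0.5428 to 15.15) against 12.47%, with 12.1% over all, and for ATM 2 (4.444%) against 8.467%, with 8.27% over all. These are small numbers, and 13 of the 45 hairpins are the Mir344 cluster in the desert beside the imprinted gene Ndn on chromosome 7. In this cluster 5 hairpins had a peak of some list within 1 kb. The 5p forms of 3 of them, near HMGA2 peaks (Mir344d-1 and Mir344-2) or an ATM peak (Mir344d-3), share a seed and are shown with the 5p form of Mir99a, a microRNA known to target mTOR. The seed (bases 2 to 8) is in capitals, and the sequences are from RefSeq GRCm38.p6.
mmu-miR-344d-1-5p: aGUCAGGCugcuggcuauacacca
mmu-miR-344d-3-5p: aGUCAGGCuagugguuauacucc
mmu-miR-344-5p: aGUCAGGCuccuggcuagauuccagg
mmu-miR-99a-5p: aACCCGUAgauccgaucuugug
The HMGA2 peak beside Mir99a had a score of 30.88 and lay 553 bp from the hairpin. The hairpin stands at chr16:77598936-77599000 on the plus strand, in the desert between Usp25 and Cxadr. Beside the Mir344 cluster the HMGA2 peaks had scores of 21.09 (966 bp from Mir344d-1), 26.06 (450 bp from Mir344h-1) and 22.14 (492 bp from Mir344-2), the ATM peak 26.65 (564 bp from Mir344d-3) and the γ-H2AX peak 20.38 (33 bp from Mir344d-2).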

How the data were processed

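ChIP-seq peaks were used from 3 wild-type MEF libraries. The authors used MACS14, per the labels, with no model, a p of 0.01 and a 30 bp shift size. Trimmomatic, Bowtie2, SAMtools, HOMER and mm10 are named in the submitters' processing notes. The control library is not given in the sources used here. Each deposited score is a value per peak, used within its list only. The deposited promoter regions are another kind of data (unit other, start and end only). The peak lists give no read depth.

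Gene positions came from RefSeq GRCm38.p6 (20661 protein-coding genes on autosomes). No genome was used here, so lengths run from the first to the last peak of each chromosome, gaps included, and base composition was read only from RefSeq promoter windows. Rates have exact Poisson intervals, shares Clopper-Pearson intervals and ratios conditional binomial intervals, all at 95%. Ratios of ratios have intervals on the log scale. With 1 library per antibody no test was made. The code was tested on simulated peaks (Python 3.11.15, scipy 1.17.1).

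Deserts, gene lists and rules were chosen with earlier results of these data known. Genes named flank the 5 longest deserts, the 3 densest and 3 sparsest of each library and the 3 most extreme ratios of HMGA2 to γ-H2AX among deserts of 500 kb or more, or belong to the 2 lists, of which examples are given. Peaks named are the 5 highest-scoring of each library (examples given), those shared by all 3 lists, and, chosen later, those at printed promoter windows and beside microRNAs.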

Additional observations from a re-analysis of the deposited data

Results flagged for a closer look

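The ratio of desert to rest density lay on opposite sides of 1 for 2 antibodies, at 1.32 for HMGA2 and 0.789 for γ-H2AX. With 1 library for each, the difference was not tested across replicates.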

How the results depend on the processing

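Over 17 alternatives per antibody the ratio of desert to rest density stayed above 1 for HMGA2 (1.26 to 1.53) and below 1 for γ-H2AX (0.702 to 0.876), and ran from 0.955 to 1.11 for ATM. It left the interval of the value reported in 10 of 17 for HMGA2, 8 of 17 for γ-H2AX and 4 of 17 for ATM. The cause of these shifts was not tested. At a score of 50 or more ATM was on the other side of 1, at 1.11 with an interval of 0.875 to 1.41 over 91 desert peaks, and the others were 1.53 (HMGA2) and 0.743 (γ-H2AX). At 30 or more they were 1.4 (HMGA2) and 0.713 (γ-H2AX), and among the 10000 highest 1.42 and 0.702. With deserts more than 100 kb from genes HMGA2 was 1.26, and beyond 500 kb the ratios were 1.44, 0.743 and 0.955 (ATM). Avoiding every annotated gene gave 1.35, 0.758 and 0.963. Leaving out 77.24 Mb in stretches of 50 kb or more without a peak gave 1.30, 0.773 and 0.960. Peaks within 1 kb counted once gave 1.30 and 0.808 for HMGA2 and γ-H2AX. Against the rest outside protein-coding gene bodies, the values were 1.43 and 0.876. Rates compared within each chromosome gave 1.30 for HMGA2. This alternative and those on antigen receptor segments and chromosome ends were chosen after seeing the data. The planned count of bases other than N and the base composition of peaks were not run, as no genome was used. Without it, mappability and assembly gaps limit every density. No paired analysis was possible because each antibody and genotype has 1 library.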
